A study of Homo sapiens with 2 samples.

Results

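The HOXA and HOXD gene clusters were examined for H3K27me3 in HCT116, an established human colorectal carcinoma cell line, at the resolution of the deposited data. The HOXA window covered chromosome 7 from 27100001 to 27300000 and the HOXD window chromosome 2 from 176930001 to 177080000, both on hg19. Every 1 kb bin of both windows was taken, 200 for HOXA and 150 for HOXD, which made 350 of 3035337 bins on chromosomes 1 to 22 and X. The windows were defined by their positions alone, although results of these data were known when they were chosen. They hold 21 member genes: HOXA2, HOXA3, HOXA4, HOXA5, HOXA6, HOXA7, HOXA9, HOXA10, HOXA11, HOXA13 and EVX1, and HOXD1, HOXD3, HOXD4, HOXD8, HOXD9, HOXD10, HOXD11, HOXD12, HOXD13 and EVX2. The series has 1 group, HCT116 cells grown in McCoy's medium with serum, for which the labels name no engineered allele and no treatment, with 2 libraries made with an H3K27me3 antibody. The protocol calls them biological replicates. Whether they came from separate cultures is not stated, so the spread between them may be technical. No input library and no second condition was used here.

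HOX genes encode homeodomain transcription factors that give cells their position along the head-to-tail axis. The order of the genes on the chromosome follows the order in which they act along the body, so low-numbered genes are called anterior and high-numbered genes posterior. Where a cluster is silent, Polycomb repressive complex 2 typically covers it with trimethylation of lysine 27 on histone H3, and in cells that use part of a cluster the mark can be lost from that part. EVX1 and EVX2, relatives of the fly gene even-skipped, lie beyond the posterior end of HOXA and of HOXD.

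The level of a bin is its read count over the library's mean count in listed autosomal 1 kb bins, so that 1 is the average listed bin and a bin absent from the file has a level of 0. The average listed autosomal bin held 22 reads in replicate 1 (53187504 reads in all) and 37.5 in replicate 2 (97031399 in all). Counting error alone, if reads were independent, was therefore 21.3% and 16.3% of the level of an average bin. Over those of the 350 bins with at least 10 reads in the 2 libraries together, the division of a bin's reads among the libraries was examined. Its variance was 2.72 times that of independent reads. Bins with fewer reads did not enter this value. A bin counted as enriched when a one-sided Poisson test, Benjamini-Hochberg adjusted over all bins, gave a p under 0.05, and its level reached 2 or more, in each of the libraries. By this rule 11.0% of all bins were enriched.

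Each window was split at its middle into an anterior and a posterior part of equal length. In HOXA the posterior part is the one with higher coordinates, towards EVX1, and in HOXD it is the one with lower coordinates, towards EVX2. The gene table used here gives the order of the genes on GRCh38 and no positions on hg19. From general knowledge of the hg19 map, HOXA2 to HOXA7 lie in the anterior part of HOXA and HOXA9 to EVX1 in the posterior part. HOXD1, HOXD3 and HOXD4 lie in the anterior part of HOXD, and HOXD8 to EVX2 in the posterior part. No gene was assigned to a single bin.

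The promoters of the members at the ends of both clusters show what DNA lies in these windows. CpG-rich promoters are typical places of Polycomb binding. The sequences are the 250 bases before the start site in RefSeq, read 5′ to 3′ on the strand of the gene, with CG dinucleotides in capitals. Their positions are on GRCh38.p14 and are not comparable with the hg19 positions of the bins. HOXA2, the anterior end of HOXA here, is on the minus strand at chr7:27102684-27102933. EVX1, the posterior end, is on the plus strand at chr7:27242552-27242801. HOXD1, the anterior end of HOXD, is on the plus strand at chr2:176188418-176188667. EVX2, the posterior end, is on the minus strand at chr2:176083963-176084212.
HOXA2: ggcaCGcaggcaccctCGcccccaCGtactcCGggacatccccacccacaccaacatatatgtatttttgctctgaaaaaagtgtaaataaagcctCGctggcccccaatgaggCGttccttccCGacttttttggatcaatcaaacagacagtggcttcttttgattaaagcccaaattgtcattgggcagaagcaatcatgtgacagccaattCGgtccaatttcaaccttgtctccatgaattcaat
EVX1: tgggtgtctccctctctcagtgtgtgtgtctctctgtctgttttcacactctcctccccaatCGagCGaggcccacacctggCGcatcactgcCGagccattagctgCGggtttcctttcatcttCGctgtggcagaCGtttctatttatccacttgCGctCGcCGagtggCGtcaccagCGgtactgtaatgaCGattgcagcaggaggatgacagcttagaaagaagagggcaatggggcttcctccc
HOXD1: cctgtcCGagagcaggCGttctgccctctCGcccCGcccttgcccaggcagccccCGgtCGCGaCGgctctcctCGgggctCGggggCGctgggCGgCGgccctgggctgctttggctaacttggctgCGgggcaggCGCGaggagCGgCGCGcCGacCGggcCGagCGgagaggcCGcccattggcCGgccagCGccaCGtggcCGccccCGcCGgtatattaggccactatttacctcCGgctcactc
EVX2: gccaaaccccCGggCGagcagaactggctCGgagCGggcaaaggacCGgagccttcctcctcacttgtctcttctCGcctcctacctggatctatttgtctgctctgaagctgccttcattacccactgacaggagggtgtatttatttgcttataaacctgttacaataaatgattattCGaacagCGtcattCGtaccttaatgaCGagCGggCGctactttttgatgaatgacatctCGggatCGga

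HOXD1 has the most CG dinucleotides of the 4 promoters shown, 31, against 8 in HOXA2, 13 in EVX1 and 14 in EVX2. Of the 21 members, 19 matched the promoter table, with 26 start sites between them. The median of the 26 promoters was 19.5 CG, against 11 over all 35116 promoters of the table. At least 1 CG occurred in 96.2% of the member promoters and in 93.9% of all promoters. The median was 19 in the 17 HOXA promoters and 21 in the 9 HOXD promoters. The count was highest at HOXA13, a gene of limb and hindgut patterning, with 40. HOXD4, an anterior gene, had 4, and 1 of 7 start sites of HOXA3 had none. CG reads the same on both strands, and its count is a property of the reference sequence, not of the cell line.

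The HOXD window carried more H3K27me3 than the HOXA window in both libraries. The mean level over HOXA was 0.531 in replicate 1 and 0.534 in replicate 2, or 0.532 ± 0.00225 (SD, n = 2). Over HOXD it was 1.18 and 1.21, or 1.20 ± 0.0207 (SD, n = 2). HOXA as a whole thus lay below the average listed bin, and HOXD just above it. HOXD over HOXA was 2.23-fold in replicate 1 (95% counting interval widened by the dispersion, 2.05 to 2.42) and 2.27-fold in replicate 2 (2.13 to 2.42). The libraries do not overlap between the clusters, but with 2 libraries the smallest two-sided p of an exact sign-flip permutation test is 0.5, which is the value obtained. No difference between areas of these windows could reach a p of 0.05 over libraries, so all such ratios are descriptions with their counting intervals.

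The chromosomes on which the clusters lie do not differ as much. The mean of listed bins on chromosome 2 was 0.899 of the autosomal mean in replicate 1 and 0.902 in replicate 2, and on chromosome 7 it was 0.868 and 0.859. Copy number and mappability were not corrected, and their part in these levels was not tested.

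**Figure D1:**
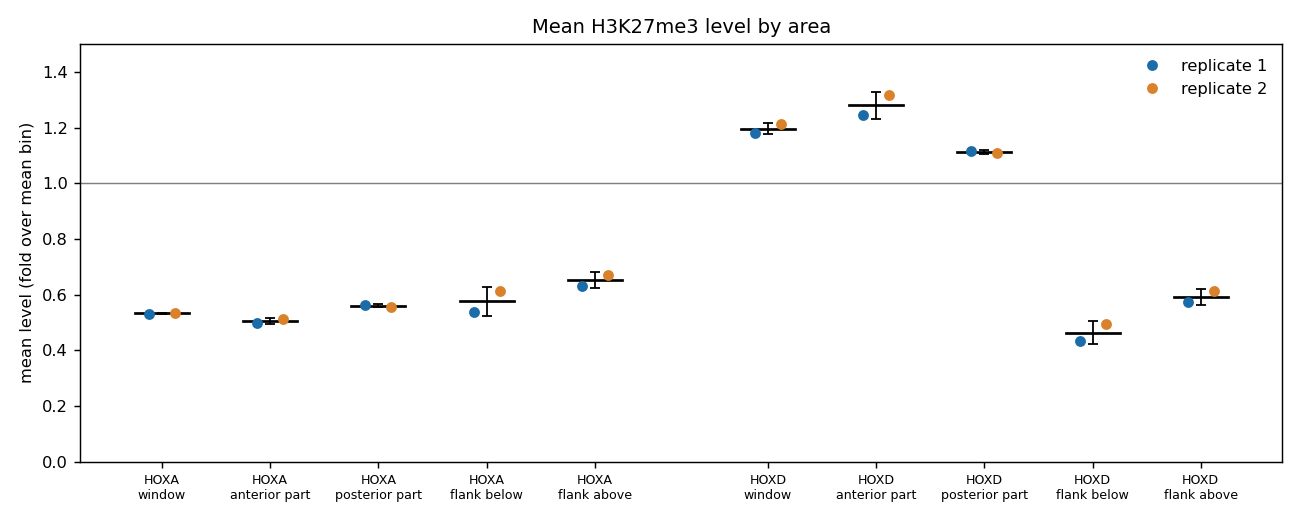
Mean H3K27me3 level (fold over the mean listed autosomal 1 kb bin, vertical axis) of both windows, their parts and the flanks of the same length; points are the 2 libraries, horizontal lines the mean and error bars the SD (n = 2). HOXD and both its parts lie above 1 in both libraries, whereas HOXA, its parts and all 4 flanks lie below 1.

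In HOXA, 1 of 200 bins (0.5%) was enriched in both libraries, against 11.0% of all bins. HOXD had 14 of 150 (9.33%), which is near that background. Enriched bins were unevenly spread over the genome, so windows of the same length give another comparison. The median autosomal window of 200 kb with at least 90% of bins listed had 1% of its bins enriched, and 44.7% of such windows had a lower share than HOXA. The median window of 150 kb had 0.667%, and 70.7% of such windows had a lower share than HOXD. HOXA was thus near the middle of windows of its length, and HOXD in their upper part. In HOXA, 3 bins passed in replicate 1 and 5 in replicate 2. In HOXD, 19 passed in replicate 1 and 20 in replicate 2. Of all bins 12.1% of bins passed in replicate 1 and 12.9% in replicate 2. Across bins, which share libraries and neighbours, Pearson's r of log2(level + 0.1) between the replicates was 0.785 in HOXA and 0.798 in HOXD.

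In HOXD the typical bin was higher than the typical autosomal bin. The median level of its bins was 0.909 for replicate 1 and 0.932 for replicate 2, against 0.364 and 0.373 for autosomal bins listed in either library. The median HOXA bin, at 0.409 and 0.40, was close to those autosomal medians. Levels of at least 1 in both libraries were found in 48 HOXD bins (32.0%) and 22 HOXA bins (11.0%), and in 19.5% of all bins. Levels under 0.5 in both libraries were found in 20 of 150 listed HOXD bins (13.3%) and in 93 of 192 listed HOXA bins (48.4%), where the share over all listed bins was 55.3%. Among the same autosomal windows of 200 kb, 54.6% had a lower mean than HOXA in replicate 1 and 52.3% in replicate 2. Among windows of 150 kb, 75.8% and 74.9% had a lower mean than HOXD.

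Within HOXA the mark was uneven, and its lowest part lay in the middle. The longest run of bins under 0.5 in both libraries was 47 kb long and went from 27179001 to 27226000, across the border of the parts. Its mean level was 0.0928 in replicate 1, from 96 reads (exact Poisson 95% interval for independent reads, not widened, 0.0752 to 0.113), and 0.125 in replicate 2, from 220 reads (0.109 to 0.142). The highest level of a bin inside it was 0.409 in replicate 1 and 0.373 in replicate 2, in different bins. By general knowledge of the hg19 map this stretch holds HOXA5, HOXA6, HOXA7, HOXA9, HOXA10 and HOXA11. HOXA5 patterns the neck and lung region, HOXA9 acts in blood progenitors, and HOXA10 and HOXA11 pattern the reproductive tract.

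The rest of the HOXA window, 153 bins, had a mean of 0.665 in replicate 1 and 0.660 in replicate 2. The stretch was thus at 0.140 of the rest in replicate 1 and 0.189 in replicate 2. It was picked as the longest low run, so its low level is a description. Of its 47 bins, 7 held no read in either library, and the whole window had 8 such bins, in which a count of 0 allows up to 3 independent reads per library. Without an input library, little H3K27me3 and poor recovery of this DNA cannot be told apart. On the autosomes 5220 of 188683 such low runs were at least as long, and the median run was 2 kb, among runs with at least 80% of bins listed.

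The borders of the low stretch were seen in both libraries in sections of 10 kb. The section from 27170001 averaged 0.750 in replicate 1 and 0.613 in replicate 2. The next, from 27180001, had 0.109 and 0.0719. The section from 27200001 to 27210000 had 0.0636 and 0.0773, the lowest of the window in replicate 1 and by the mean of the libraries. In replicate 2 the section from 27180001 was lower. On the posterior side the level came back in steps. The section from 27220001 had 0.259 and 0.242, the section from 27230001 had 0.291 and 0.285, and the section from 27240001 had 1.16 and 1.00. All 6 sections from 27180001 to 27240000 lay under 0.3 in both libraries, while the other 14 lay above 0.3 in both.

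**Figure D2:**
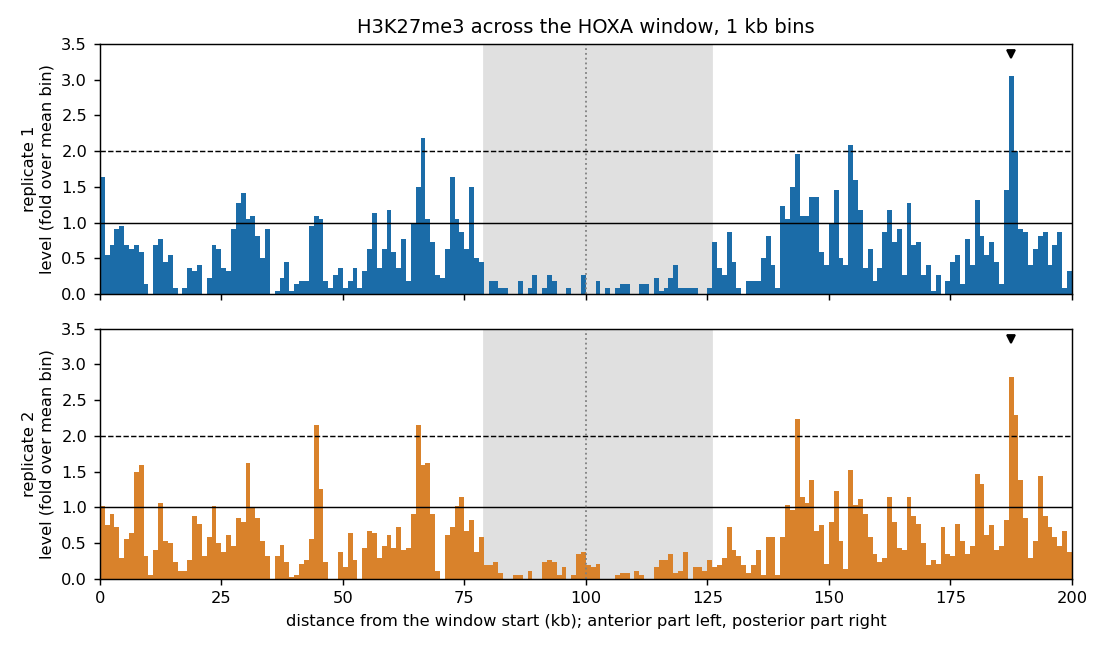
Level of every 1 kb bin across HOXA (fold over the mean listed autosomal bin, vertical axis) by distance from the window start in kb, one panel per library. The solid line marks 1, the dashed line 2, the dotted line the border of the parts, the grey area the 47 kb low stretch, and the triangle the 1 bin enriched in both libraries.

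The single enriched HOXA bin lay in the posterior part, at 27287001 to 27288000, on the EVX1 side. It held 67 reads in replicate 1 and 106 in replicate 2, a level of 3.05 and 2.82. The neighbouring bin from 27288001 stood at 2.00 and 2.29 and missed the minimum in replicate 1, where its level was 1.99977 before rounding. The third highest bin, from 27243001, stood at 1.95 and 2.24. These bins are modest by the standard of the genome, since 7.13% of autosomal bins were at least as high as the highest HOXA bin in both libraries. In the anterior part, on the side of HOXA2 to HOXA7, no bin was enriched in both libraries. The bins that came nearest lay at 27165001, with 1.5 and 2.16, and at 27166001, with 2.18 and 1.60. They passed in 1 library each.

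The anterior and posterior parts of HOXA did not differ beyond counting error. The anterior part had a mean of 0.498 in replicate 1 and 0.512 in replicate 2, and the posterior part 0.564 and 0.556. Posterior over anterior was 1.13 in replicate 1 (widened 95% counting interval 0.991 to 1.30) and 1.08 in replicate 2 (0.979 to 1.20), and both intervals include 1. The direction depended on where the parts met: with the border moved by 20 kb towards the anterior side, which puts most of the low stretch into the posterior part, the ratio was 0.804, and moved to the posterior side it was 1.54.

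HOXD held its enriched bins in 5 separate narrow runs, rather than in a continuous block. The 14 enriched bins held 28.5% of the window's reads in replicate 1 and 29.0% in replicate 2. The other 136 bins had a mean of 0.932 and 0.948, so the base of the window was close to the average listed bin. The enriched bins were picked for their height, so leaving them out had to lower the mean. This base was still higher than the means of both flanks, which are given below. The longest run measured 4 kb. On the autosomes 21164 of 44444 enriched runs were at least that long, and the longest covered 356 kb.

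The highest run lay in the posterior part, from 176953001 to 176956000, towards EVX2 and HOXD13, the gene of digit and hindgut patterning. Its 3 bins held 106, 190 and 76 reads in replicate 1 and 161, 286 and 150 in replicate 2. Their levels were 4.82, 8.64 and 3.45 in replicate 1. In replicate 2 they were 4.29, 7.62 and 4.0. The middle bin was the highest of the window in both libraries, and only 0.109% of autosomal bins reached its level in both. The 2 bins before the run and the 2 after it lay between 0.454 and 1.41 in replicate 1 and between 0.293 and 1.44 in replicate 2, so the peak was confined to 3 kb at this bin size.

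Of the other 4 runs, 1 lay in the posterior part. From 176995001 to 176998000, on the HOXD8 side of the posterior part, 3 bins averaged 2.65 in replicate 1 and 2.35 in replicate 2. In the anterior part, a single bin from 177010001 stood at 2.14 and 3.38. This was the run on which the libraries differed most: replicate 2 also passed the test in the bins from 177008001, 177009001 and 177011001, which replicate 1 did not.

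The 2 runs nearest the anterior end, towards HOXD1, were the longest of the anterior part. From 177044001 to 177047000 the mean was 3.62 in replicate 1 and 3.79 in replicate 2, and its first bin, at 5.18 and 5.17, was the second highest of the window. From 177055001 to 177059000 the mean was 3.17 and 3.76 over 4 bins, with a summit of 4.09 and 4.85 in the bin from 177056001. Both runs lay above the HOXA maximum of 3.05 and 2.82 at their summits in both libraries.

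**Figure D3:**
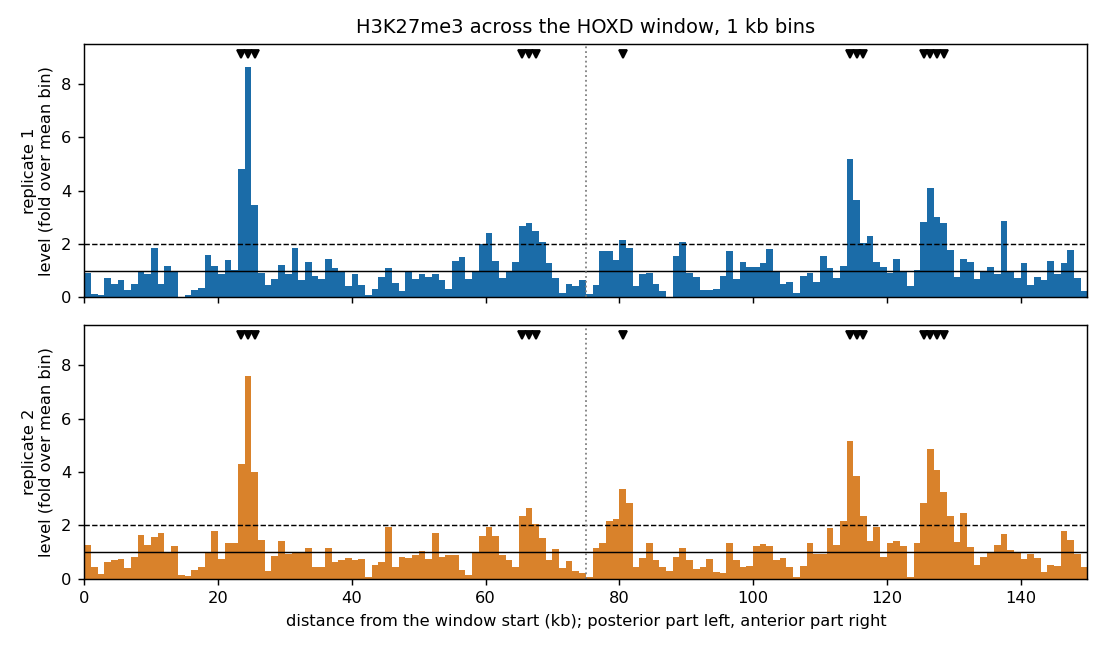
Level of every 1 kb bin across HOXD (fold over the mean listed autosomal bin, vertical axis) by distance from the window start in kb, one panel per library, with the posterior part on the left. Triangles mark the 14 bins enriched in both libraries, which form 5 runs, the solid line marks 1, the dashed line 2 and the dotted line the border of the parts.

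Between the runs of HOXD single bins had very low counts, for which little mark and poor recovery likewise cannot be told apart. The lowest bins between the outermost enriched bins lay at 176972001, with 0.0909 in replicate 1 and 0.0533 in replicate 2, at 177005001, with 0.136 and 0.0533, and at 177036001, with 0.182 and 0.0799. Each held 2 to 4 reads per library. The longest HOXD run under 0.5 was only 4 kb, from 176944001 to 176948000, and had 0.182 and 0.253. It lay outside the outermost enriched bin on the EVX2 side. HOXD thus had no low stretch like the 47 kb of HOXA. The same list of lowest bins cannot be given for HOXA, which had 1 enriched bin.

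The anterior part of HOXD, with HOXD1, HOXD3 and HOXD4, stood above its posterior part. The anterior part had a mean of 1.25 in replicate 1 and 1.32 in replicate 2, with 8 of 75 bins enriched (10.7%). The posterior part had 1.12 and 1.11, with 6 of 75 enriched (8.0%). Neither share was above the 11.0% of all bins, so these counts do not set the parts apart. Anterior over posterior was 1.12 in replicate 1 (widened 95% counting interval 1.01 to 1.24) and 1.19 in replicate 2 (1.10 to 1.29). The highest single bin nevertheless lay in the posterior part. Without the 3 highest bins of the window posterior over anterior went from 0.869 ± 0.0384 to 0.789 ± 0.0253 (SD, n = 2). Of these bins, those from 176953001 and 176954001 were posterior and that from 177044001 was anterior. They were picked for their height, so leaving them out had to lower this ratio. The change therefore adds nothing to the comparison of the parts. In HOXA the ratio of the parts had the opposite sign, at 1.11 ± 0.0343 (SD, n = 2), but there it changed sign with the border. In the anterior parts HOXD over HOXA was 2.54 ± 0.0439 and in the posterior parts 1.99 ± 0.00818 (SD, n = 2).

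The clusters also differed in how they stood against their surroundings. The flanks of HOXA, 200 kb each, had means of 0.539 and 0.613 below the window and 0.632 and 0.672 above it in replicates 1 and 2. HOXA, at 0.531 and 0.534, was lower than both flanks in both libraries, by little in replicate 1 on the lower side. Without its low stretch HOXA stood at 0.663 ± 0.00398 (SD, n = 2), against 0.576 ± 0.0523 and 0.652 ± 0.0283 in the flanks. The stretch was picked for its low values, so leaving it out had to raise the mean. The flanks kept their own low bins, so this is no like comparison. The flanks of HOXD, 150 kb each, had 0.434 and 0.493 below and 0.572 and 0.613 above, where the window had 1.18 and 1.21. The mean of HOXD was thus higher than that of both flanks in both libraries. In sections of 20 kb, however, part of the upper flank was higher than any section of the window, as given below.

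The area around HOXD that stood above its surroundings ended between neighbouring sections on both sides, beyond the ends of the window. In sections of 20 kb, the level below the window was 0.202 in replicate 1 and 0.274 in replicate 2 from 176850001, and 0.734 and 0.831 in the next section, from 176870001. Above the window it was 0.934 and 1.13 from 177110001, and 0.223 and 0.230 from 177130001. The 260 kb between these borders had a mean of 1.13 and 1.19. Of its 260 bins 20 were enriched (7.69%), which is below the 11.0% of all bins. Inside the borders but above the window, the section from 177090001 had 1.92 and 2.00, with 6 enriched bins. No 20 kb section within the window was as high, where the highest reached 1.68 in replicate 1 and 1.76 in replicate 2. The borders were chosen after the levels had been seen. The 3 sections before 176850001 lay between 0.113 and 0.157 in both libraries, and the 3 from 177150001 between 0.0999 and 0.164.

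**Figure D4:**
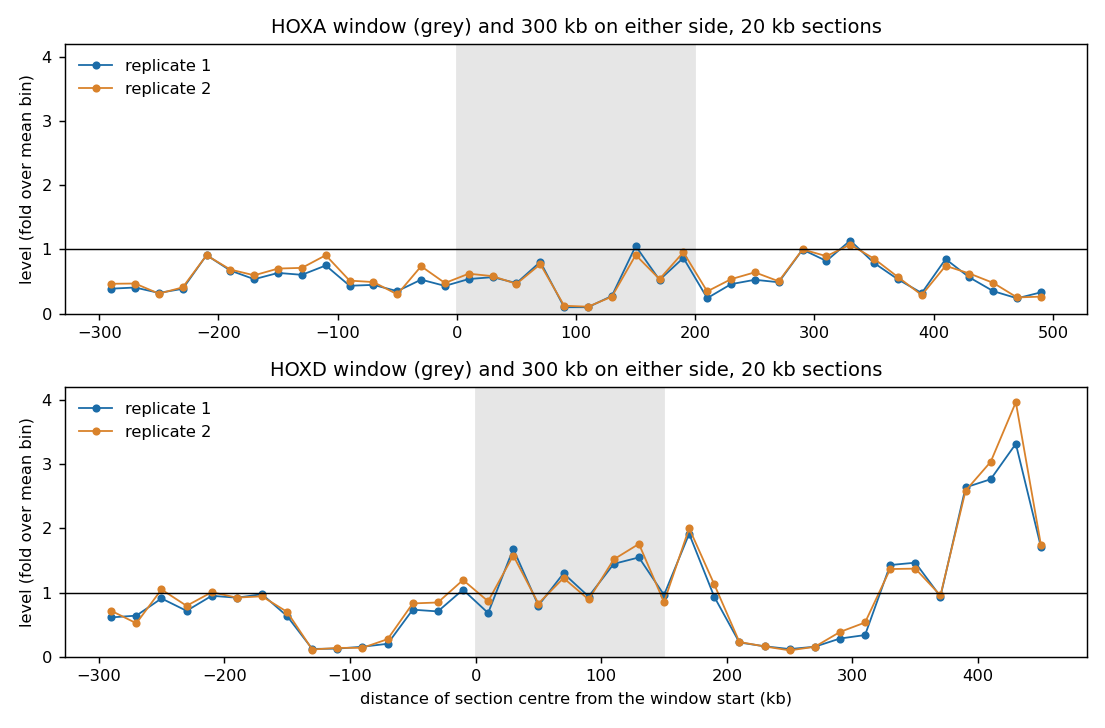
Mean level of 20 kb sections (fold over the mean listed autosomal 1 kb bin, vertical axis) across each window, in grey, and 300 kb on either side, by distance from the window start in kb, for both libraries. HOXD stands between 2 stretches near 0.1, and HOXA has its lowest sections inside the window.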

How the data were processed

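Both H3K27me3 libraries belong to 1 group. The deposited values are raw read counts per 1 kb bin, per the text that accompanies the files; empty bins are left out of them. The authors aligned with BWA 0.7.12 to hg19, per the submitters' processing notes. How reads were counted, and how duplicates and mapping quality were treated, is not given in the sources used here. Of HOXA bins with 1 to 10 reads, 64.9% held an even number (mean of the libraries). Such an excess would arise if both mates of a read pair were counted; reads are then not independent, and Poisson calls, unwidened intervals and limits for a count of 0 are too narrow.

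Levels, calls and ratios were computed with Python 3.11.15, numpy 2.4.6, pandas 2.3.3 and scipy 1.17.1. Enriched bins were joined across gaps of at most 1 bin. The calling procedure was run on simulated counts of chromosome 7, with reads drawn in pairs over a flat base of 0.4. Of bins planted at 4-, 2.5- and 1.5-fold, 100%, 76% and 0.5% were called in both libraries. The simulation did not use the dispersion of the data, so these shares need not hold for the windows. Intervals cover counting error only; widened ones use the dispersion of 2.72. Depth was 53187504 and 97031399 reads.

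By rule all 21 members were named by the part of the window they lie in, and bins by height: the 3 highest, the 3 lowest between the outermost enriched bins, and the outermost. Promoters were printed for the first and last member of each cluster. Members, windows and tests were chosen with earlier results of these data known. Levels at single genes were not computed, since no hg19 annotation was used here.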

Additional observations from a re-analysis of the deposited data

How the results depend on the processing

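A level or ratio was taken as moved when it changed by more than the SD of the replicates, a count or run when it changed by more than 1.5 times, and a correlation when it changed by more than 0.05. The causes of moves were not tested. The 1 enriched HOXA bin became 5 with a fold minimum of 1.5, 0 at 3, 37 when scaled to the median listed bin, 3 when scaled to its chromosome, 0 with bins of 5 kb, and 3 to 5 with a replicate left out. Of 150 HOXD bins, the 14 became 22, 6, 75 and 16 in those settings, and 19 to 20 with a replicate left out. With 5 kb bins, of which each window holds fewer, 4 were called in HOXD. Over all bins 14.2%, 6.56%, 23.3%, 11.2% and 13.0% (5 kb bins) were then called. Scaled to the median, the 75 of 150 HOXD bins stood above the 23.3% of all bins. That HOXD was near the share of all bins thus depended on the scaling. Halved counts left 1 and 14, and over all bins the same 332934 calls as the main setting. Halving does not change a level, and the minimum of 2 set the calls. This setting therefore could not test the calls for reads counted in pairs. Thinning replicate 2 left 1 and 13. The longest run in HOXA, 1 kb, was 0 at a minimum of 3 and ranged from 1 to 2 kb when each replicate was left out in turn; the 4 kb of HOXD ranged from 4 to 7 kb. The HOXA level of 0.532 became 0.610 when scaled to all autosomal bins, 0.617 to its chromosome, 0.512 with 10 kb trimmed at each end and 0.663 without the low stretch; HOXD, 1.20, became 1.37, 1.33, 1.26 and, without its 3 highest bins, 1.10. HOXA over HOXD, 0.445, became 0.464 scaled to the chromosomes, 0.439 with medians over bins, 0.407 trimmed and 0.554 without the low stretch. Posterior over anterior in HOXA, 1.11, reversed to 0.804 with the border 20 kb to the anterior side and became 1.54 with it to the posterior side, 1.06 with medians, 1.16 trimmed and 1.18 without the low stretch; in HOXD, 0.869, it became 0.788 with the border to the anterior side and 0.789 without the 3 highest bins. Pearson's r across the 350 bins, 0.830, became 0.944 with 5 kb bins. The settings with 5 kb bins for calls, without the low stretch and without the 3 highest bins were added after the data were seen. No paired analysis was possible because all libraries belong to a single group.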

Other observations

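Beyond the window, on the side of HOXD1, the level was high again at a distance. The 20 kb sections from 177310001, 177330001 and 177350001 had means of 2.64, 2.77 and 3.32 in replicate 1 and of 2.59, 3.04 and 3.97 in replicate 2. They held 11, 11 and 16 enriched bins of 20, where 11.0% of all bins were enriched. These 20 kb sections are higher than every 20 kb section of the HOXD and HOXA windows in both libraries, where the highest HOXD section reached 1.68 in replicate 1 and 1.76 in replicate 2. No gene is assigned to them here. On the side of EVX2, the sections of 20 kb from 176670001 to 176770000 lay between 0.716 and 1.05 in both libraries, with 1 enriched bin, and then gave way to the low sections beside the cluster.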
